A study of Mus musculus with 12 samples.

Results

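The Myc and Pvt1 locus was taken as every listed region that overlapped 61.00 to 63.60 Mb of mouse chromosome 15 in build mm9, a window of 2.6 Mb in which Myc starts near 61.817 Mb and Pvt1 follows. The window held 526 of the 313566 regions in 11 lists, and 172 of them lay upstream of the Myc start, 5 within 1 kb of it and 349 downstream. Myc encodes a transcription factor that drives growth and division in many tumours, pancreatic cancer included. Pvt1 is the gene of a long noncoding RNA, and the DNA on both sides of Myc is known for enhancers that act on it over long distances. In the gene order of GRCm38, another build used for names only, Pvt1 is the next gene after Myc, A1bg is the protein-coding gene before Myc and Gsdmc the next one after it.

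The regions came from 12 chromatin immunoprecipitation libraries of cell lines from mouse pancreatic cancer, grown in F12/DMEM with EGF and left untreated. KDM6A and MLL4 were profiled in female KDM6A-KO and female KDM6A-WT cells. H3K4me1 was profiled in female KO and WT cells and in male KO and WT cells. H3K4me3, H3K27ac and H3K27me3 were profiled in female WT cells, and an input or IgG library of that line had no list used here. Each group held 1 library, and no label says that libraries came from separate cultures. The cell type label describes every line, the WT ones included, as coming from a K6A null tumour, so KO and WT below stand for the libraries labelled so. Neither the age of the animals nor the promoter or Cre behind the tumours is stated in those labels.

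KDM6A, also called UTX, removes methyl groups from H3K27 and is a subunit of the MLL3 and MLL4 complexes. MLL4 places H3K4me1, the methylation mark of enhancers. H3K27ac accompanies active enhancers and promoters, H3K4me3 active promoters, and H3K27me3 Polycomb-silenced DNA. The value given with each region is the authors' whole number per region, read here as its reads, and is used only to rank regions within a list. Shares carry exact 95% Clopper-Pearson intervals in brackets, which cover counting error over regions only. Neighbouring regions of a list are not replicates, and no difference between libraries was tested. Reads summed over the regions of a list ranged from 108165 to 17526099, and total depth per library is not stated in the labels or lists. A region that is not listed may still hold signal below the caller's threshold.

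The lists were uneven in ways that bear on all that follows. The KDM6A antibody gave 5961 regions in female KO against 2847 in female WT, so the list of the targeted protein does not check the genotype label. Chromosome 15 held 3.44% of the KDM6A regions of KO against 22.0% of those of WT, and 2.20% of the MLL4 regions of KO against 24.3% of those of WT, where the chromosome makes up 3.90% of the span of all chromosomes. For the 7 histone lists that share was between 3.12% and 4.85%. The part this uneven spread had in the KO and WT counts of the window was not tested, and the window is therefore set against the rest of chromosome 15 in the same list.

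Within chromosome 15, the Myc and Pvt1 window was covered more by KDM6A, MLL4, H3K4me1 and H3K27ac regions than the remainder, and was nearly free of H3K27me3 regions. The window is 2.59% of the chromosome's span. It held 8.29% [4.91 to 12.9] of the chromosome's KDM6A regions in female KO (17 of 205) and 8.47% [6.41 to 10.9] in female WT (53 of 626). For MLL4 it held 12.4% [8.85 to 16.8] in female KO (36 of 290) and 5.60% [3.78 to 7.94] in female WT (29 of 518). For H3K4me1 the shares were 3.63% [2.62 to 4.89] in female KO, 3.83% [3.08 to 4.70] in female WT, 3.89% [3.16 to 4.74] in male KO and 3.99% [3.30 to 4.76] in male WT. The H3K27ac share was 3.16% [2.23 to 4.33] and included the window's share of the span in its interval. H3K4me3, with 15 of 1030 regions, lay below it at 1.46% [0.817 to 2.39]. H3K27me3 had 1 region of 954 here, or 0.105% [0.00265 to 0.583]. The order among lists depended on their length. With every list cut to its 2130 regions with the most reads, the KDM6A share was 15.2% [7.51 to 26.1] in female KO and 9.04% [6.67 to 11.9] in female WT. For MLL4 it was then 16.5% [9.06 to 26.5] in female KO and 5.60% [3.78 to 7.94] in female WT. The H3K4me1 shares became 11.8% [5.79 to 20.6] in female KO, 5.53% [2.89 to 9.46] in female WT, 6.18% [3.57 to 9.84] in male KO and 6.34% [3.42 to 10.6] in male WT. The H3K27ac share became 7.14% [3.48 to 12.7].

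By length, KDM6A regions covered 1.35% of the window against 0.285% of the rest of chromosome 15 in female KO, and 4.17% against 0.958% in female WT. MLL4 regions covered 2.55% against 0.395% in female KO and 2.38% against 0.903% in female WT. H3K4me1 covered 12.8% against 5.55% in female KO and 23.6% against 13.0% in female WT. In the male lines it covered 27.4% against 12.6% in KO and 31.2% against 14.8% in WT. H3K27ac covered 10.5% against 5.52%, H3K4me3 2.08% against 3.44%, and H3K27me3 0.331% against 12.7%.

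The other stretches of chromosome 15 give these values a scale. Among 38 tiles of 2.6 Mb laid along the chromosome from the window, the window was first in covered length for KDM6A of KO, KDM6A of WT and MLL4 of KO, and second for MLL4 of WT. Its KDM6A coverage in WT of 4.17% stood beside a highest value of 2.15% and a median of 0.877% in the other 37 tiles. Its KDM6A coverage in KO of 1.35% stood beside a highest value of 0.808% and a median of 0.262%. In H3K4me1 it took place 4 in female KO, 8 in female WT, 5 in male KO and 3 in male WT. It was 7 in H3K27ac, 18 in H3K4me3 and 33 in H3K27me3. Over 976 tiles of all chromosomes the window was still first for KDM6A of WT and second for MLL4 of WT, the lists with a large share on chromosome 15. It took place 67 for KDM6A of KO and 69 for MLL4 of KO.

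**Figure D1:**
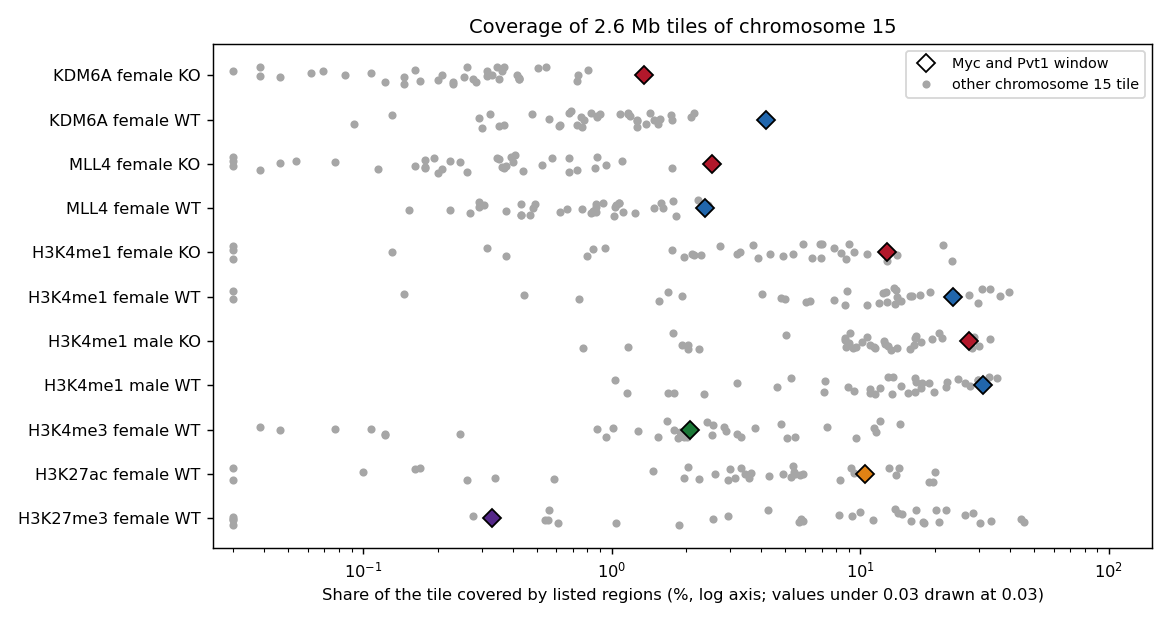
Share of 2.6 Mb tiles of chromosome 15 covered by listed regions, in percent on a log axis, with 1 row per list. Diamonds mark the Myc and Pvt1 window and grey points the other 37 tiles; the window lies to the right of all other tiles for KDM6A of KO, KDM6A of WT and MLL4 of KO.

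The Myc start itself carried strong active marks and no listed KDM6A region. The H3K4me3 region at 61814601 to 61824200 of chromosome 15 held 4661 reads, place 77 of 24492 in its list and 6 on the chromosome. The H3K27ac region at 61813401 to 61825800 held 1680 reads, place 300 of 29284. The nearest KDM6A region lay 159.0 kb downstream in female KO and 60.0 kb downstream in female WT. The only binding region at the start was MLL4 of female KO at 61816401 to 61817000, with 28 reads and place 11232 of 13152, near the bottom of its list. The nearest MLL4 region of female WT was 93.4 kb downstream.

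H3K4me1 flanked the start differently in the 4 lists. Female KO had none before it for 118.0 kb and then 61820401 to 61826800 with 362 reads. Female WT had regions on both sides, 61814001 to 61817000 with 105 reads and 61819201 to 61829000 with 630 reads, separated by 2.20 kb. Male KO also had both sides, 61812001 to 61816800 with 300 reads and 61820401 to 61826000 with 556 reads, 3.60 kb apart. Male WT had only the downstream side, 61820401 to 61827200 with 608 reads, and its nearest region upstream ended 84.2 kb away. The region just past the start was thus listed in all 4 lines, and the one just before it in female WT and male KO, a pattern that does not follow genotype.

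**Figure D2:**
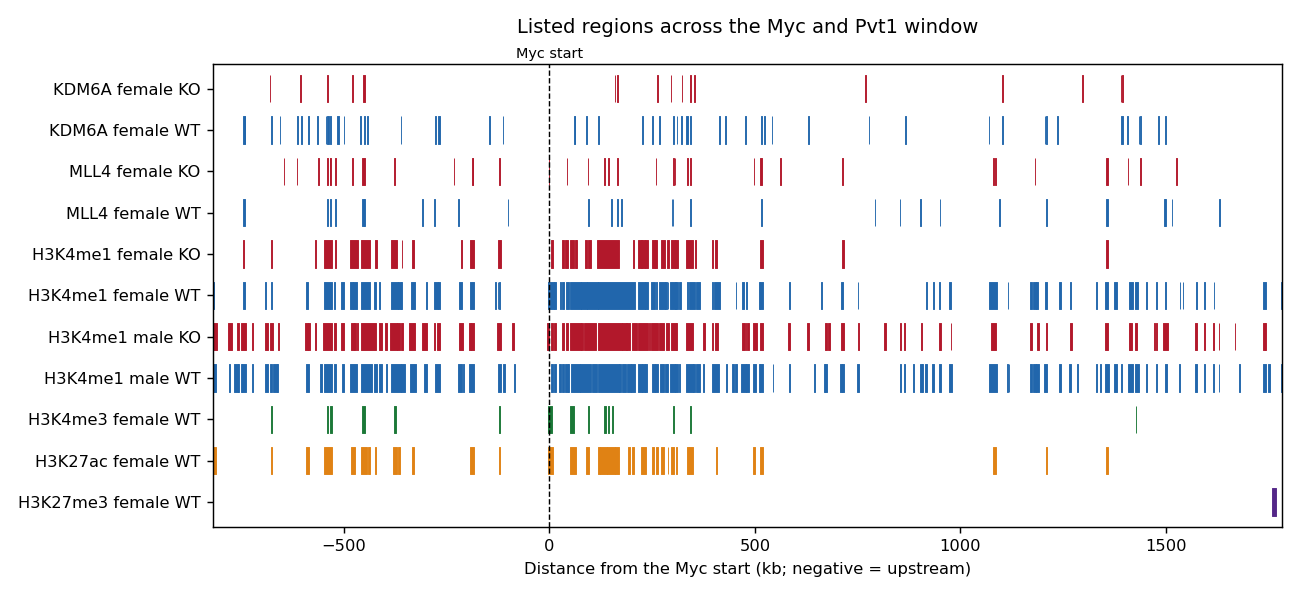
Listed regions across the Myc and Pvt1 window by distance from the Myc start in kb, with 1 row per list and KO above WT. Each bar is a region drawn to scale with a thin outline; H3K4me1 of female KO has 2 regions beyond 550 kb downstream, and the single H3K27me3 region lies 1758 kb downstream.

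Upstream of Myc, the 3 leading H3K27ac elements lay between 61269001 and 61445800, a span called the upstream cluster here. Those elements set its bounds, and other upstream regions lay outside them. All 3 elements had H3K4me1 and H3K4me3, and 2 had both KDM6A and MLL4. H3K27ac was led upstream by 61359201 to 61374000 with 1593 reads, 61269001 to 61288400 with 1580 reads and 61437201 to 61445800 with 950 reads. H3K4me1 in all 4 lists and H3K4me3 overlapped each of them. The leading H3K4me3 regions upstream lay inside them, at 61362401 to 61368400 with 504 reads, 61439001 to 61443200 with 284 and 61284001 to 61287400 with 192. These are far below the 4661 reads at the Myc start in the same list.

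The element 448.6 kb upstream led several lists. The MLL4 region of female KO at 61361401 to 61369600 held 317 reads, place 7 of 13152 in its list and first on chromosome 15. In female WT, MLL4 had a region at 61362601 to 61366200 with 148 reads, place 27 of 2130, and another at 61366801 to 61369000 with 87 reads. KDM6A had 61364001 to 61368600 with 161 reads in female KO, place 16 of 5961, and 61366601 to 61368600 with 92 reads in female WT, place 166 of 2847. H3K4me1 covered it in a single region in each line, 23.0 kb long in female KO, 21.4 kb in female WT, 38.2 kb in male KO and 26.2 kb in male WT.

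The element 538.0 kb upstream carried the KDM6A region of female WT with the most reads in the window. In female KO the KDM6A region was 61275801 to 61279000 with 112 reads, place 84 of 5961, and in female WT it was 61276801 to 61282400 with 247 reads, place 2 of 2847. MLL4 had 133 reads at 61277201 to 61279200 in female KO and 134 at 61276201 to 61279600 in female WT. H3K4me1 covered it for 20.4 kb in female KO, 18.4 kb in female WT, 22.2 kb in male KO and 20.4 kb in male WT. A further 2.40 kb KDM6A region of WT at 61284601 to 61287000 with 97 reads had MLL4 in both genotypes, 95 reads at 61284801 to 61287200 in KO and 109 reads at 61283001 to 61286400 in WT, but no KDM6A region in KO.

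The third upstream element, 373.8 kb before the start, differed from the other two in its binding. MLL4 of female KO held 191 reads at 61439001 to 61442200, and neither MLL4 of female WT nor KDM6A of either genotype was listed over it. H3K4me1 there was 15.2 kb long in female KO, with 841 reads, and 16.6 kb in female WT, with 929 reads. In the male lines the leading H3K4me1 regions upstream also included 61429801 to 61447400 with 1740 reads in KO and 60985601 to 61007600 with 2078 reads in WT, which lies at the edge of the window. Among H3K27ac regions without H3K4me3, the upstream leaders were 61333601 to 61344600 with 726 reads, 60994801 to 61007600 with 682 and 61623801 to 61633800 with 618. Each lay under H3K4me1 in the 4 lists.

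Between the upstream cluster and Myc the lists thinned out. No list had a region from 61732801 to 61812000, a stretch of 79.2 kb that ends 5.0 kb before the start, and H3K27ac was missing for 136.0 kb from 61487801 to 61623800.

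Other upstream binding regions among the 5 with the most reads per list had fewer marks. For KDM6A of female KO they were 61337601 to 61339800 with 65 reads, inside H3K27ac and all 4 H3K4me1 lists, then 61137601 to 61138800 with 38 reads and 61211601 to 61213000 with 35 reads, which no female WT mark overlapped. For KDM6A of female WT, 61300601 to 61305000 with 146 reads lay outside all other lists. The KDM6A regions 61072401 to 61076400 with 145 reads and 61547201 to 61550800 with 133 reads had H3K4me1 of female WT but no H3K27ac. MLL4 of female KO had 61629001 to 61630800 with 61 reads under H3K27ac, and MLL4 of female WT had 61072601 to 61076000 with 110 reads, over the KDM6A region just named.

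Downstream of Myc, the first 250 kb were the part of the window with most H3K4me1. Regions covered 50.8% of it in female KO and 84.0% in female WT, and 81.0% in male KO and 77.0% in male WT. The female KO list thus stood below the other 3, as it did over the rest of chromosome 15 (5.55% against 12.6% to 14.8%). H3K27ac covered 39.0% and H3K4me3 10.2% of these first 250 kb in female WT. Before the Myc start, the 250 kb next to it had only 7.36% H3K4me1 in female KO and 9.92% in female WT, and 14.2% in male KO and 17.4% in male WT.

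A single domain made up most of this coverage. Neighbouring H3K4me1 regions up to 5 kb apart were joined into runs. In female KO the longest run, 61933601 to 61987000, was 53.4 kb and in place 180 of 21627 by length. In female WT it was 182.6 kb, 61842201 to 62024800, in place 6 of 32133. In male KO the run was 237.8 kb, 61857801 to 62095600, the longest of 33234 in that list. In male WT it was 183.2 kb, 61841801 to 62025000, in place 3 of 39176. Inside the bounds of the female WT run, female KO had 9 regions over 96.4 kb (52.8% of it) against 7 regions over 172.2 kb (94.3%) in female WT. Male KO had 10 regions over 157.4 kb (86.2%) and male WT 12 regions over 160.0 kb (87.6%). The bounds came from the female WT list, so its high coverage here followed from that choice and is not a separate result.

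The core of the domain was listed in every line. The region with the most H3K4me1 reads in the window was 61933601 to 61987000 with 3265 reads in female KO, place 23 of 35041 and first on chromosome 15. It was 61935201 to 62024800 with 6728 reads in female WT, place 9 of 56076. It was 61935401 to 61994200 with 5451 reads in male KO, place 16 of 49780, and 61934401 to 61987000 with 5473 reads in male WT, place 18 of 64247. The core ended at the same base in female KO and male WT. Past it, up to the end of the female WT run, female KO listed only 62020401 to 62022200 with 43 reads.

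The core held 4 H3K27ac regions that together spanned 49.8 kb, 61935601 to 61985400. The leading ones were 61940601 to 61956400 with 1044 reads and 61957201 to 61976200 with 978 reads, followed upstream by 61868401 to 61882200 with 793 reads. KDM6A covered 1.75% of the female WT run in female KO and 3.07% in female WT, against 1.35% and 4.17% of the window. MLL4 covered 3.40% of the run in KO and 4.27% in WT, against 2.55% and 2.38% of the window. KDM6A had 2 regions there with 32 and 56 reads in female KO, against 4 with 39 to 61 reads in female WT, and no KDM6A region of one genotype overlapped one of the other. MLL4 had 5 regions with 24 to 65 reads in KO and 4 with 29 to 113 reads in WT.

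**Figure D3:**
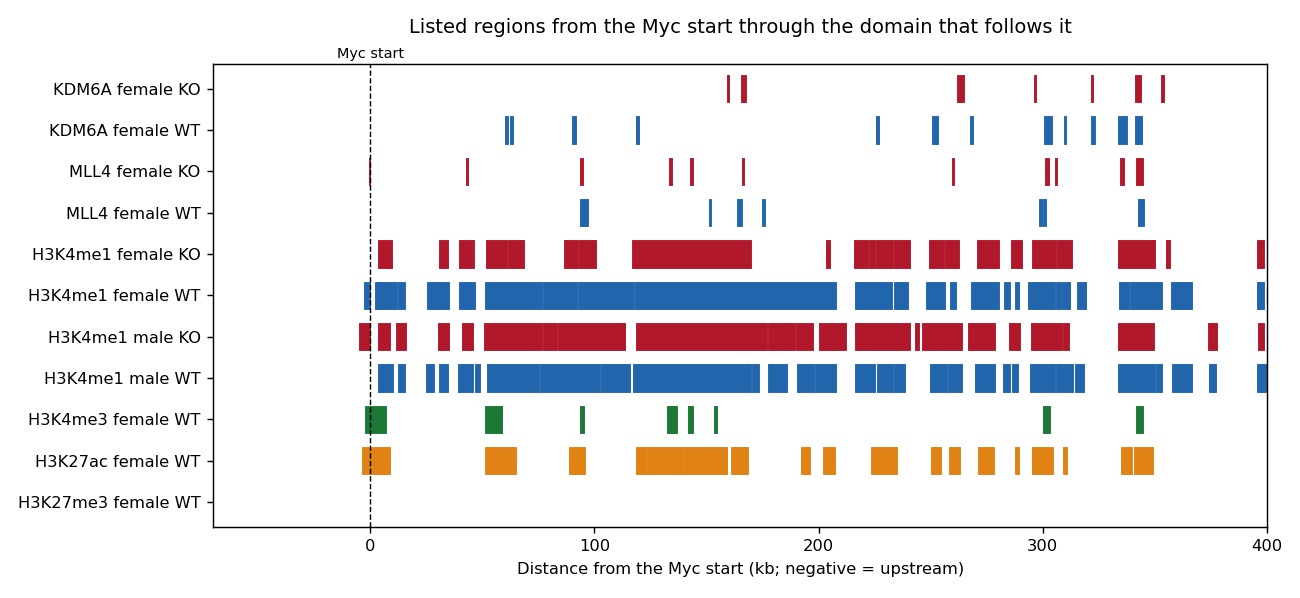
Listed regions from 70 kb before to 400 kb after the Myc start, by distance in kb, with 1 row per list and KO above WT. Of the 182.6 kb H3K4me1 run of female WT past Myc, regions cover 96.4 kb in female KO and 172.2 kb in female WT. The female WT list set those bounds, so its high coverage follows from the choice. The 53.4 kb core is the extent of the leading female KO region.

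The second H3K4me3 region by reads lay 51.0 kb downstream of the Myc start, at 61868001 to 61876000, with 2235 reads and place 1377 of 24492. It was overlapped by H3K27ac and by H3K4me1 in all 4 lists, with 567 reads at 61868601 to 61878200 in female KO and 1589 reads at 61868001 to 61893800 in female WT. In male KO the H3K4me1 region was 61867801 to 61893800 with 1982 reads. No KDM6A or MLL4 region of either genotype overlapped the H3K4me3 region. The start of Pvt1 in mm9 was not in the tables used here, so none of these regions is assigned to it. H3K4me1 of female KO was next led downstream by 62150401 to 62167200 with 985 reads and 62112201 to 62122800 with 873, and that of male KO by 62033201 to 62058000 with 1703 reads. The next H3K4me3 regions by reads were 61949601 to 61953800 with 409 reads, in the core of the domain, and 62117001 to 62120400 with 334 reads.

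Beyond the domain, an element 342.6 kb downstream carried the same lists as the upstream pair. KDM6A was listed at 62158401 to 62161000 with 94 reads in female KO, the leading KDM6A region downstream in that list, and at 62158201 to 62161400 with 114 reads in female WT. MLL4 was listed at 62158601 to 62161800 with 148 reads in female KO, also the leader downstream, and at 62159601 to 62162000 with 84 reads in female WT. H3K27ac had 547 reads at 62157801 to 62166400 and H3K4me3 287 reads at 62158801 to 62161800. H3K4me1 had 985 reads at 62150401 to 62167200 in female KO and 1082 reads at 62155801 to 62170400 in female WT, with 1504 reads in male KO and 1828 in male WT.

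Stretches that 10 lists shared, all but H3K27me3, occurred 3 times in the window. They were 61277201 to 61279000 (1800 bp), 61366801 to 61368400 (1600 bp) and 62159601 to 62161000 (1400 bp), which lie 538.0 and 448.6 kb upstream and 342.6 kb downstream of the Myc start. The rest of chromosome 15 had 1 such stretch, so that the density was 1.15 per Mb in the window and 0.0102 per Mb elsewhere. Stretches shared by the 4 KDM6A and MLL4 lists alone numbered 3 in the window, the same ones, and 3 in the rest of the chromosome. These elements were where KDM6A and MLL4 of both genotypes met inside H3K4me3, H3K27ac and H3K4me1.

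Some of the other leading downstream binding regions lay on H3K27ac, and others had no mark of female WT. KDM6A of female WT had 62117601 to 62121200 with 149 reads, 62150401 to 62154800 with 143 and 62332001 to 62335000 with 115, each with H3K27ac, H3K4me1 in all 4 lists and MLL4 of KO, and none with KDM6A of KO. MLL4 had 62330601 to 62334000 with 119 reads in female KO and 62331601 to 62335200 with 122 reads in female WT. MLL4 of WT also had 61910401 to 61914000 with 113 reads, under the female WT H3K4me1 region 61909801 to 61934800 with 1302 reads. KDM6A of female KO had 62078801 to 62082000 with 93 reads, over H3K27ac and over H3K4me1 of female KO and both male lines but not of female WT. Farther out, KDM6A of KO had 62917401 to 62920600 with 88 reads, which overlapped KDM6A of WT, and 63112601 to 63115000 and 62585201 to 62587600 with 74 reads each, and MLL4 of WT had 62911401 to 62914000 with 78 reads. None of these 4 had a mark of female WT. The leading downstream H3K27ac regions without H3K4me3 were 62040401 to 62052200 with 438 reads, 61977801 to 61985400 with 292 and 62896001 to 62902200 with 288.

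Most KDM6A regions of the window were listed in 1 genotype only. Of the 17 regions of female KO, 7 overlapped one of female WT (41.2% [18.4 to 67.1]), against 15.4% [10.6 to 21.4] of 188 in the rest of chromosome 15. In the window 58.8% of the KO regions had no overlap in WT, against 95.6% over all chromosomes. The WT list was shorter (2847 against 5961 regions) and lay more on chromosome 15 (22.0% against 3.44%). Their part in this contrast was not tested. Of the 53 regions of WT, 6 overlapped one of KO (11.3% [4.27 to 23.0]), against 5.06% [3.42 to 7.19] of 573 in the rest of the chromosome. In the window 88.7% of the WT regions had no overlap in KO, close to the 91.0% over all chromosomes. The median was 103.0 reads among WT regions overlapped in KO and 50 reads among the others. KDM6A also covered more of the window than of the rest of the chromosome, 1.35% against 0.285% in KO and 4.17% against 0.958% in WT. The part of that coverage in the overlaps was not tested.

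MLL4 lists of both genotypes were set side by side in the same way. Of the 36 regions of female KO, 11 overlapped one of WT (30.6% [16.3 to 48.1]), against 20.9% [16.0 to 26.4] of 254 in the rest of chromosome 15. Without overlap were 69.4% in the window and 95.2% over all chromosomes. The WT list was shorter (2130 against 13152 regions) and lay more on chromosome 15 (24.3% against 2.20%). Their part in this contrast was not tested. Of the 29 regions of WT, 11 overlapped one of KO (37.9% [20.7 to 57.7]), against 10.2% [7.68 to 13.3] of 489 in the rest of the chromosome. Without overlap were 62.1% in the window, against 71.7% over all chromosomes. MLL4 of KO also covered more of the window than of the rest of the chromosome (2.55% against 0.395%). The part of that coverage in the overlap was not tested. The median was 109.0 reads among WT regions overlapped in KO and 46.0 among the others.

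**Figure D4:**
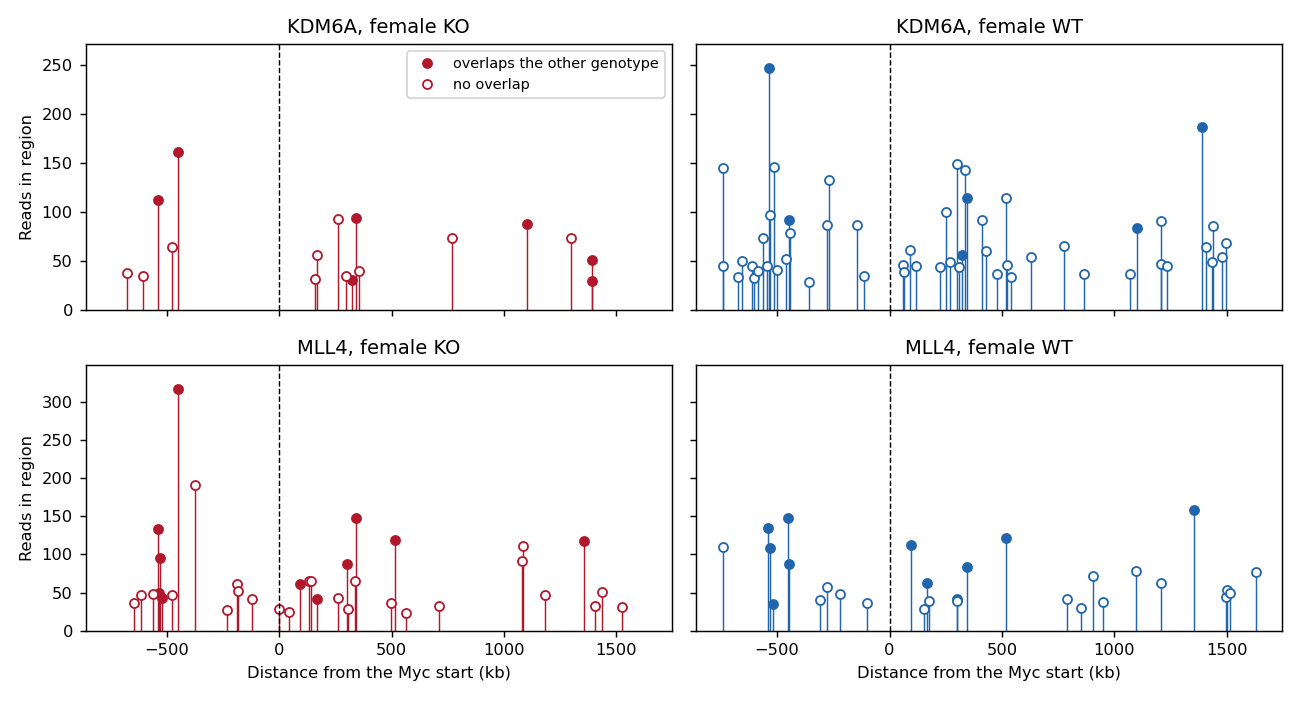
KDM6A (top) and MLL4 (bottom) regions by distance from the Myc start in kb, with reads per region on the vertical axis, for female KO on the left and female WT on the right. Filled points overlap a region of the other genotype; the 317 reads of MLL4 in KO and the 247 reads of KDM6A in WT belong to the upstream cluster, and reads are not comparable as levels between lists.

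H3K27ac regions of the window more often had a binding region over them than those on the rest of the chromosome. KDM6A regions of KO overlapped 21.6% of the 37 H3K27ac regions in the window against 4.85% of 1134 in the rest, and those of WT 43.2% against 10.8%. MLL4 regions of KO overlapped 51.4% against 13.1%, and those of WT 29.7% against 11.6%. The window's H3K27ac regions were also longer, with a median of 6000 against 3600 bp, and binding regions covered more of the window. How far this accounts for the overlaps was not tested. H3K27ac itself was profiled in female WT cells only, so the KO lists are set here on the elements of the other line. KDM6A of WT overlapped 38.5% [13.9 to 68.4] of the 13 H3K27ac regions upstream of Myc and 47.8% [26.8 to 69.4] of the 23 downstream. A part of the binding lay outside any mark of female WT, namely 8 of 17 KDM6A regions of KO, 25 of 53 of WT, 8 of 36 MLL4 regions of KO and 10 of 29 of WT. The share with such a mark was 52.9%, 52.8%, 77.8% and 65.5% in that order. In the rest of chromosome 15 it was 48.9%, 50.6%, 80.3% and 55.0%, each inside the window's interval and so near the background.

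The window's H3K27ac regions were mostly without H3K4me3. H3K4me3 overlapped 32.4% of the 37 in the window against 67.8% of those in the rest of chromosome 15. H3K4me1 of female WT overlapped 36 of the 37. H3K27me3 overlapped 0 of 37 H3K27ac regions and 0 of 87 H3K4me1 regions of female WT, where it overlapped 10.3% and 16.8% in the rest of the chromosome. The only H3K27me3 region, 63575401 to 63584000 with 229 reads, lay 1758 kb downstream. From 59125601 up to it, 4.45 Mb held no H3K27me3 region, and the next region after the window began 2.80 kb past its end.

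In the female lines, H3K4me1 regions listed in 1 genotype alone were mostly those of WT, whose whole list was longer (56076 against 35041 regions). Of the 41 regions of female KO, 39 overlapped one of female WT (95.1% [83.5 to 99.4]), against 84.6% in the rest of chromosome 15. Without overlap were 4.88% in the window and 23.4% over all chromosomes. Of the 87 regions of female WT, 39 overlapped one of KO (44.8% [34.1 to 55.9]), against 39.6% in the rest of the chromosome. Without overlap were 55.2% in the window, close to the 51.1% over all chromosomes. By side, KO listed 15 of 25 WT regions upstream (60.0% [38.7 to 78.9]) and 24 of 61 downstream (39.3% [27.1 to 52.7]). Listed and unlisted WT regions differed in size, with a median of 372.0 against 125.0 reads and 7200 against 3100 bp. H3K4me1 also covered more of the window than of the rest, 12.8% against 5.55% in KO and 23.6% against 13.0% in WT. The part of that coverage in the overlaps was not tested.

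In the male lines more of the WT list was shared. Of the 94 regions of male KO, 83 overlapped one of male WT (88.3% [80.0 to 94.0]), against 76.4% in the rest of the chromosome. The share without overlap was 11.7% in the window and 25.4% over all chromosomes. Of the 116 regions of male WT, 83 overlapped one of KO (71.6% [62.4 to 79.5]), against 63.8% in the rest. The share without overlap was 28.4% in the window and 42.0% over all chromosomes. Here too H3K4me1 covered more of the window than of the rest, 27.4% against 12.6% in KO and 31.2% against 14.8% in WT. The part of that coverage in the overlaps was not tested. KO listed 28 of 32 male WT regions upstream (87.5% [71.0 to 96.5]) and 55 of 84 downstream (65.5% [54.3 to 75.5]). In both sexes the share was lower downstream than upstream of Myc in the lists as deposited, with overlapping intervals. In the female lines this depended on the processing. Among the regions above the median reads the shares were equal, at 10 of 20 upstream and 21 of 42 downstream. After neighbours within 5 kb were merged the shares were 68.4% [43.4 to 87.4] upstream and 23.1% [11.1 to 39.3] downstream.

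The far downstream part, beyond 550 kb, a bound chosen after the values were seen, had few H3K4me1 regions in female KO. Female KO listed 2 regions over 8.80 kb there, against 31 over 125.0 kb in female WT. Of those 31, KO listed 2 (6.45% [0.791 to 21.4]), while in the near downstream part it listed 22 of 30 (73.3% [54.1 to 87.7]). Male KO listed 32 regions over 135.6 kb in the far part against 45 over 198.6 kb in male WT, and 26 of those 45 were overlapped (57.8% [42.2 to 72.3]). In the near part, male KO overlapped 29 of 39 WT regions (74.4% [57.9 to 87.0]).

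The stretch was poor in H3K27ac. It had 3 H3K27ac regions in 1233 kb, and H3K27ac was missing for 559.4 kb from 62336601 to 62896000. Of the female WT regions there without H3K27ac, KO listed 1 of 28 (3.57% [0.0904 to 18.3]), and the same share over the rest of chromosome 15 was 12.0% (143 of 1188), inside that interval. Of the far female WT regions with H3K27ac, KO listed 1 of 3 (33.3% [0.840 to 90.6]). In the near downstream part KO listed 17 of 17 WT regions with H3K27ac and 5 of 13 without it. Upstream it listed 11 of 13 with H3K27ac and 4 of 12 without it, and in the rest of chromosome 15 72.4% and 12.0%. How far the lack of H3K27ac and the smaller size of these regions account for the far downstream difference was not tested.

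The 2 far regions that female KO kept were both listed in the male lines. One, 62528601 to 62532600 with 125 reads in KO and 62525401 to 62531800 with 315 reads in WT, had a short MLL4 region of KO. The other, 63170401 to 63175200 with 219 reads in KO and 63169401 to 63175800 with 445 reads in WT, carried H3K27ac and MLL4 of both genotypes, with 118 reads in KO and 158 reads in WT. The MLL4 region of WT there, 63170801 to 63175200, was place 20 of 2130 in its list and the leader downstream of Myc. Between these 2 regions female KO had no H3K4me1 region for 637.8 kb, while 14 regions of female WT, 12 of male KO and 22 of male WT lay wholly inside that gap. The gap was chosen as the longest of female KO in the window, so the direction of this contrast was fixed by the choice. The longest H3K4me1 gaps of the other lists were 165.4 kb in female WT, 96.6 kb in male KO and 98.2 kb in male WT.

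The leading female WT region without a KO counterpart was in that gap. It spanned 62887201 to 62904600, 1070 kb downstream, with 1022 reads over 17.4 kb, and carried H3K27ac. MLL4 of female KO was listed inside it at 62900001 to 62904000 with 111 reads and at 62897201 to 62899600 with 92 reads. No MLL4 region of female WT was listed over it, and H3K4me1 was listed there in male KO with 1326 reads and male WT with 1753 reads. MLL4 was thus listed in the line without the H3K4me1 region and not in the line with it. The next by reads were 63189601 to 63198800 with 415 reads, also missing from male KO, and 63228001 to 63235600 with 411 reads, listed in both male lines. A far KDM6A region without any female WT mark, 63206401 to 63211600 with 187 reads in WT, lay between these last 2 and overlapped KDM6A regions of KO with 30 and 51 reads.

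Upstream, the leading female WT regions without KO were 61310401 to 61318200 with 411 reads, 61537801 to 61546000 with 372 and 61449401 to 61455200 with 304. All 3 were listed in both male lines, and the first 2 were overlapped by KDM6A of WT. In the other direction female KO alone had only 61246601 to 61250400 with 127 reads upstream, which male KO also listed at 61246201 to 61250600 with 194 reads and neither WT line did, and 62171801 to 62173600 with 39 reads downstream.

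In the male lines the leading WT regions without KO were 61145401 to 61153800 with 413 reads, 61703401 to 61709000 with 226 and 61259601 to 61263800 with 155 upstream, none of which female WT listed. Downstream they were 63191001 to 63198600 with 511 reads, 62174801 to 62183400 with 463 and 62993801 to 62999600 with 316, and female WT listed all 3. Male KO alone had 3 regions upstream and 7 downstream. They were led downstream by 62495001 to 62499400 with 191 reads, 62443401 to 62448600 with 170 and 62631601 to 62635000 with 116, none of them listed in female WT. Upstream, after the region shared with female KO, came 61727401 to 61730000 with 73 reads and 61536801 to 61538600 with 57.

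**Figure D5:**
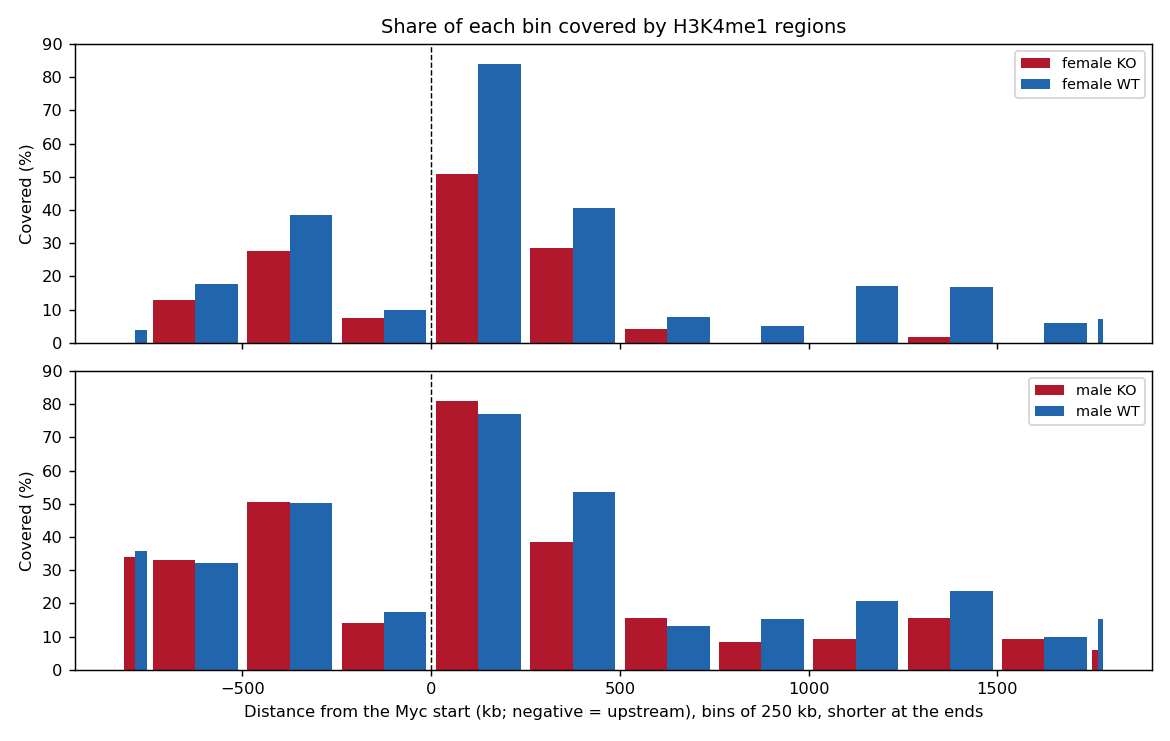
Share of each 250 kb bin covered by H3K4me1 regions, in percent, by distance from the Myc start in kb, for the female lines (top) and the male lines (bottom), with KO left of WT in each bin. From 0 to 250 kb the values are 50.8% in female KO and 84.0% in female WT, and 81.0% in male KO and 77.0% in male WT; from 750 to 1250 kb female KO has none.

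Joining the 4 H3K4me1 lists into 106 merged regions set the sexes side by side. Both WT lines shared 65 of them. Of these, 27 were in all 4 lines, 25 were missing from female KO alone, 13 from both KO lines and 0 from male KO alone. The shares in all 4 lines, missing from female KO alone and missing from male KO alone were 41.5%, 38.5% and 0.00%. In the rest of chromosome 15 they were 45.8%, 29.4% and 1.07%, each inside the window's interval and so near the background. Upstream, 6 of 19 were missing from female KO and 0 from male KO. Downstream, 32 of 46 were missing from female KO (69.6% [54.2 to 82.3]) and 13 from male KO (28.3% [16.0 to 43.5]), and those 13 were among the 32. In the rest of chromosome 15, 53.1% were missing from female KO and 24.8% from male KO, and over all chromosomes 43.8% and 29.9%. The downstream share missing from male KO was therefore near the background. Regions of both WT lines missing from both KO lines were 20.0% [11.1 to 31.8] in the window, 23.7% in the rest of chromosome 15 and 26.2% over all chromosomes, so their share here was near the background. All 13 lay downstream of Myc.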

How the data were processed

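The authors deposited region lists called per library, each with a whole-number count per region and no header. That the counts are reads was inferred from their values and from SICER's usual layout. The submitters' processing notes name Bowtie 1.1.2, SICER 1 and build mm9 without roles. The control and threshold behind each list are not stated there. File starts count from 0, and positions are printed counting from 1 on a grid of 200 bp.

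Regions overlapping the window were kept. A region counted as overlapped when at least 1 bp was shared. Runs joined neighbours within 5 kb. The rest of chromosome 15 was 97.66 Mb between the outermost listed regions. No test was run, since each group had 1 library. The members and lists were chosen with earlier results of these data known.

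Regions are named by a fixed rule: those at or nearest to the Myc start, the 3 with the most reads per list and side (5 for KDM6A and MLL4), the 3 leaders listed in 1 genotype alone, and the 3 leading H3K27ac regions without H3K4me3. Others named, such as elements shared by 10 lists and regions in the far downstream stretch, were chosen after their values were seen.

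Alternatives were a minimum cover of 50%, the part of each list above its median reads, lists cut to 2130 regions, neighbours within 5 kb merged, and other bounds of the far stretch, the last added after seeing the data. Python 3.11.15, numpy 2.4.6, pandas 2.3.3, scipy 1.17.1 and matplotlib 3.10.9 were used. Overlaps were tested on simulated data and checked against bedtools 2.31.1.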

Additional observations from a re-analysis of the deposited data

Results flagged for a closer look

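Covered H3K4me1 length was set side by side for the sexes in bins of 250 kb from the Myc start. In 4 bins the KO minus WT difference had opposite signs in the male and the female lines, and with 1 library per group this difference was not tested. From 0 to 250 kb downstream, H3K4me1 of male KO covered 10 kb more than that of male WT, while the female difference was -83.0 kb. From 500 to 250 kb upstream the male difference was 0.4 kb and the female one -27.4 kb. From 750 to 500 kb upstream the male difference was 2.8 kb and the female one -12.4 kb. From 500 to 750 kb downstream the male difference was 6.0 kb and the female one -9.4 kb. Female KO covered less than female WT in every bin of the window, these 4 and all the others. Choosing bins by opposite signs therefore fixed the positive sign of the 4 male differences, which is not a separate result. In every bin not chosen, male KO covered less than male WT.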

How the results depend on the processing

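For 31 results, 109 alternatives were run, of which 96 stayed within the interval of the value reported and 13 moved outside it; the cause was not tested. Cutting lists to the 2130 regions with the most reads raised the window's share of chromosome 15 regions to 15.2% for KDM6A of KO, 11.8% and 5.53% for H3K4me1 of female KO and WT, 6.18% and 6.34% for male KO and WT, and 7.14% for H3K27ac, and gave 0.00% for H3K27me3. Keeping the upper part by reads gave 11.1% for KDM6A of WT, 4.90% for H3K4me1 of female KO, and 5.0% of upstream female WT H3K4me1 regions with H3K4me3. Merging neighbours within 5 kb gave 100% of downstream female KO H3K4me1 regions listed in WT and 23.1% of WT listed in KO. Asking for 50% cover left 1.64% of downstream female WT H3K4me1 regions with H3K4me3. Moving the far bound to 450 or 650 kb gave 11.1% and 6.67% in the female lines and 57.7% and 58.1% in the male lines. No paired analysis by replicate number was possible because the groups share number 1 alone, and the female and male pairs of H3K4me1 libraries were set side by side without a test. Depth limits all absences, since total reads per library and thresholds are unknown.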
